A study of Saccharomyces cerevisiae with 8 samples.

Results

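The mitochondrial genome of budding yeast was represented on these arrays by 23 genes, taken as every gene spot whose systematic name begins with Q0, out of 6225 genes. The rule used names alone and no measured value, though it was set with earlier results of these data known. The 23 genes fall into 8 protein genes, 6 open reading frames within introns of COX1, 3 within introns of COB, the open reading frame SCEI (Q0160) within the intron of the large ribosomal RNA gene, and 5 other open reading frames, known by systematic name alone. Of these, 19 matched a mitochondrial locus of the RefSeq R64 gene table, and Q0010, Q0017, Q0182 and Q0297 did not. Each gene had 1 probe of its own, printed in 2 spots.

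Yeast mitochondrial DNA encodes a few subunits of the respiratory chain and of the ATP synthase together with a ribosomal protein, and nuclear genes supply the other subunits of the same complexes. The mitochondrial genes are transcribed by a dedicated polymerase, Rpo41 with its partner Mtf1, and not by RNA polymerase II, which TFIIB serves. COX1 and COB are interrupted by introns, several of which carry open reading frames for maturases or endonucleases that act in splicing or in spreading of the intron. Mature mRNAs of yeast mitochondria lack the poly(A) tail of nuclear mRNAs. How the labelling reaction was primed is not given in the sources used here.

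Gene expression was measured on 8 one-colour Agilent arrays in 4 groups of 2. The series' design text gives the samples of a group as biological replicates. The groups were cells labelled as a TFIIB mutant with 4 mM H2O2, the mutant with 0 mM H2O2, control cells with 4 mM H2O2, and control cells with 0 mM H2O2. All were of the laboratory strain CENPK.2-1C, grown in YPD, a rich glucose medium, and collected in exponential phase at an OD600 of 1. The labels call the mutant M1 and give neither the change in TFIIB nor how the mutant gene was carried. The comparisons ask how the mutant differed from the control in each medium, what H2O2 did in each strain, and whether these responses differed. ± after a log2 change is the standard error of the limma fit, a change is called at a Benjamini-Hochberg adjusted p under 0.05, and 2 arrays per group limit the precision of every value.

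The arrays labelled mutant stood apart from the control arrays. SUA7, the gene for TFIIB, read 8.05 ± 2.36 units on the mutant arrays with H2O2 and 6.22 ± 0.187 units on those without, against 20759 ± 9858 and 27713 ± 4377 units on the control arrays with and without H2O2 (SD, n = 2 each). The probe was not well above background on any mutant array, and a probe does not report a base change. The 75th percentile of an array was 9.87 to 14.5 units on the mutant arrays and 9185 to 15424 units on the control arrays, while the E1A probes, which read an RNA spiked into each sample, gave 3210 to 4693 units and 2621 to 4079 units. Changes are therefore given on 2 scales, relative to the 75th percentile of the same array and relative to its spike-in probes. Less signal from a group's libraries and less RNA per cell cannot be told apart in these bulk samples.

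On the arrays labelled mutant the mitochondrial probes were nearly all dim, and Q0017 was the exception. With H2O2, 6 of 23 genes (26.1%) were well above background on both mutant arrays, against 20 (87.0%) on both control arrays. Without H2O2 the numbers were 8 (34.8%) on the mutant arrays and 17 (73.9%) on the control arrays. Over all 6225 genes the shares were 21.4% and 96.2% with H2O2, and 23.7% and 94.6% without. Well above background is a scanner flag that most of these probes met at low signals. Of the 23 genes, 1 (4.35%) read at least 100 units on both arrays of a mutant group, in either medium, against 17 (73.9%) in each control group. Over all 6225 genes the shares at 100 units were 2.44% and 1.98% on the mutant arrays with and without H2O2. On the control arrays they were 91.4% and 93.3%, so the dimness of the mutant arrays was general.

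**Figure D1:**
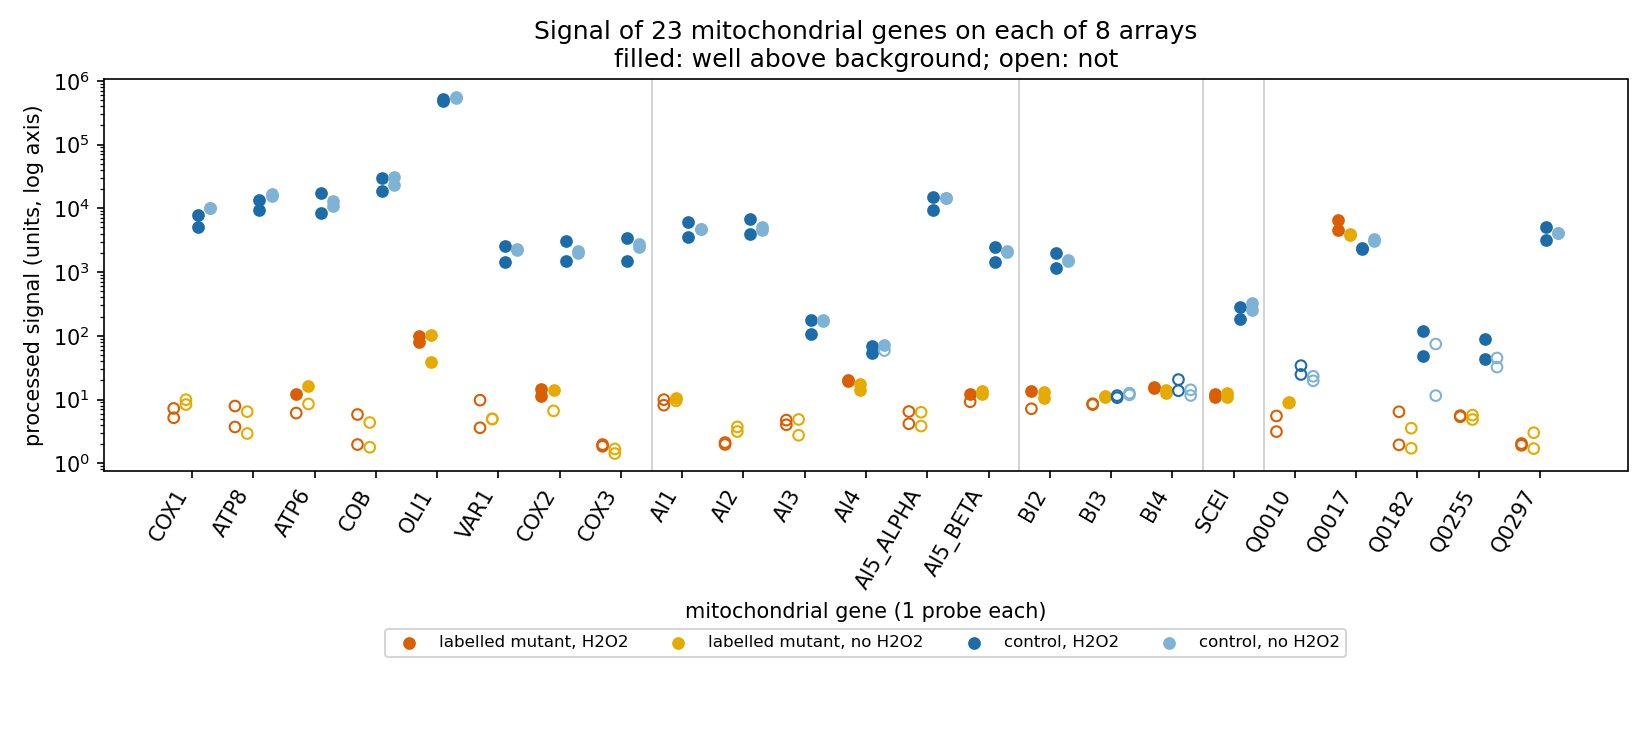
Processed signal in units (log axis) of the 23 mitochondrial genes on each of the 8 arrays, with 2 points per group and gene, filled where the probe was well above background. Levels of different probes are not comparable. Apart from Q0017, the points of arrays labelled mutant lie at or below 103 units, and BI3 and BI4 are as dim in control cells as on the mutant arrays.

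Among the genes of complex IV, cytochrome c oxidase, COX1 encodes the catalytic subunit that holds the oxygen-reducing site. Its probe lies in exon 8 of COX1 and read 5.17 and 7.24 units on the mutant arrays with H2O2 and 8.33 and 9.94 units on those without. On the control arrays it read 5063 and 7727 units with H2O2 and 9959 and 10147 units without. The mutant arrays all lie below the control arrays, as for 99.0% of all genes, and the control arrays with H2O2 both lie below those without. In units the latter held for 3673 of the 5865 genes well above background on all 4 control arrays, and for 4 of 17 such mitochondrial genes.

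COX2 encodes the subunit that accepts electrons from cytochrome c. It read 14.9 and 11.1 units on the mutant arrays with H2O2 and 14.2 and 6.64 units on those without, against 1481 and 3033 units in control cells with H2O2 and 1984 and 2160 units without. COX3, a core subunit without redox centres, read 1.85 and 1.96 units on the mutant arrays with H2O2, 1.42 and 1.67 units on those without, 1492 and 3425 units in control cells with H2O2, and 2462 and 2728 units without. For both genes the control arrays with H2O2 lie on either side of those without.

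COB encodes cytochrome b, the mitochondrially made subunit of complex III, and its probe lies in exon 6. It read 1.96 and 5.82 units on the mutant arrays with H2O2 and 4.35 and 1.78 units on those without. On the control arrays it read 18760 and 30406 units with H2O2 and 23544 and 31018 units without. The control groups overlap, and the probe was not well above background on any mutant array.

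The ATP synthase genes gave the same contrast of strains. OLI1 encodes the proton-carrying ring subunit of the membrane sector, and read 98.6 and 80.4 units on the mutant arrays with H2O2 and 103 and 39.2 units on those without. In control cells it read 488235 and 524550 units with H2O2 and 558772 and 539998 units without. OLI1 was well above background on all 8 arrays, so its difference between strains is measured and is not a bound.

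ATP6, which with the ring forms the proton path, read 6.13 and 12.04 units on the mutant arrays with H2O2 and 16.5 and 8.51 units on those without. It read 8430 and 17319 units in control cells with H2O2 and 10943 and 12846 units without. ATP8, a small subunit of the membrane sector, read 3.71 and 7.89 units on the mutant arrays with H2O2, 6.45 and 2.92 units on those without, 9394 and 13543 units in control cells with H2O2, and 15548 and 16473 units without. For ATP8 the control arrays with H2O2 both lie below those without in units, as for 3673 of the 5865 genes well above background on all 4 control arrays. For ATP6 they lie on either side of those without.

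VAR1, the mitochondrially encoded protein of the small ribosomal subunit, read 3.60 and 9.77 units on the mutant arrays with H2O2 and 4.99 and 4.92 units on those without. Control cells gave 1414 and 2522 units with H2O2 and 2330 and 2235 units without. No mutant array was well above background.

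Relative to the spike-in probes, all 8 protein genes were lower on the arrays labelled mutant, in both media. The fitted change of OLI1 was -12.79 ± 0.42 with H2O2 and -13.37 ± 0.42 without (log2, adjusted p = 1.1e-18 and 4.1e-19), a 7095-fold and a 10572-fold difference. COX2 changed by -7.68 ± 0.40 with H2O2 and by -8.03 ± 0.40 without, and ATP6 by -10.78 ± 0.43 and -10.26 ± 0.43. ATP6 was well above background on 1 of the 2 mutant arrays in each medium, and COX2 on both with H2O2 and on 1 without, so these sizes rest in part on dim readings. Where no mutant array was well above background the fold is a bound, taken on each array from whichever was higher, the dim probe or the dimmest probe that was flagged. COB was at least 3259-fold lower with H2O2 and at least 4377-fold lower without. The bounds with H2O2 were 1539-fold for ATP8, 853-fold for COX1, 308-fold for COX3 and 257-fold for VAR1.

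Of the 22 mitochondrial genes tested on the spike-in scale, 19 were lower with H2O2, when 99.4% of 6045 genes tested were lower, and 1 was higher, when 0.0662% were. Without H2O2 again 19 were lower (99.6% of genes) and 0 were higher (0.0496% of genes), and the same number, 19, had an unadjusted p under 0.05 (99.7% of genes). The median change of the mitochondrial genes was -8.21 with H2O2 and -8.58 without, beside -9.42 and -10.19 over all genes tested. The lower calls made up 86.4% of the mitochondrial genes in each medium, and Q0017, BI3 and BI4 were the 3 genes not called lower.

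Intron frames of COX1 also read lower on the arrays labelled mutant. AI5_ALPHA (Q0070), in intron 5 of COX1, was at least 1633-fold lower on the mutant arrays with H2O2 and at least 2342-fold lower without. AI4 (Q0065), in intron 4, was dim in control cells too. It read 20.3 and 19.5 units on the mutant arrays with H2O2 and 17.8 and 14.2 units on those without, against 53.0 and 68.4 units and 72.7 and 58.6 units on the control arrays with and without H2O2. AI5_BETA (Q0075), in intron 6, read 9.22 to 13.8 units on the mutant arrays and 1455 to 2427 units on the control arrays.

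BI2 (Q0110), a maturase frame in intron 2 of COB, read 7.15 to 13.7 units on the mutant arrays and 1168 to 1982 units on the control arrays. SCEI, the homing endonuclease of the ribosomal RNA intron, read 10.8 to 12.7 units on the mutant arrays and 186 to 325 units on the control arrays. The other COX1 intron frames, AI1, AI2 and AI3 (Q0050, Q0055 and Q0060), read at most 10.74 units on any mutant array and at least 105.2 units on any control array. None of these genes overlapped between strains. Of all 23 mitochondrial genes, 20 read lower in units on all 4 mutant arrays than on all 4 control arrays, as did 99.0% of the 6225 genes.

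BI3 (Q0115) and BI4 (Q0120), the other COB intron frames, showed no such contrast. BI4 read 15.3 and 15.4 units on the mutant arrays with H2O2 and 12.7 and 13.96 units on those without, against 13.7 and 20.5 units in control cells with H2O2 and 11.6 and 14.2 units without. BI3 read 8.58 and 8.33 units on the mutant arrays with H2O2, 11.5 and 11.1 units on those without, 11.5 and 10.69 units in control cells with H2O2, and 12.6 and 11.8 units without. Neither was well above background on any control array, so these probes give no level for the control.

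Q0017 was the exception among the 23 genes. Its probe is placed by the authors' deposited tables on the plus strand of the mitochondrial chromosome at 4268 to 4327, in columns that name no build, outside COX1 and COB. It read 4513 and 6613 units on the mutant arrays with H2O2 and 3960.0 and 3868 units on those without, against 2325 and 2368 units in control cells with H2O2 and 3268 and 3039 units without. It was well above background on all 8 arrays, and in each medium both mutant arrays lie above both control arrays in units.

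On the spike-in scale Q0017 differed by 0.90 ± 0.42 between the mutant and control arrays with H2O2 (adjusted p = 0.0449), where its fitted change ranked 4 from the top among 6045 genes. Without H2O2 it differed by 0.02 ± 0.42 (adjusted p = 0.963) and ranked 6. The authors' deposited table for the medium with H2O2 lists Q0017 as up 228-fold with a corrected p of 0.00850. The authors' deposited table for the medium without H2O2 lists it as up 401-fold with a corrected p of 0.0121. These folds are on the authors' own scale, whose centring is not stated. They are not comparable with the spike-in changes or with the units above.

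**Figure D2:**
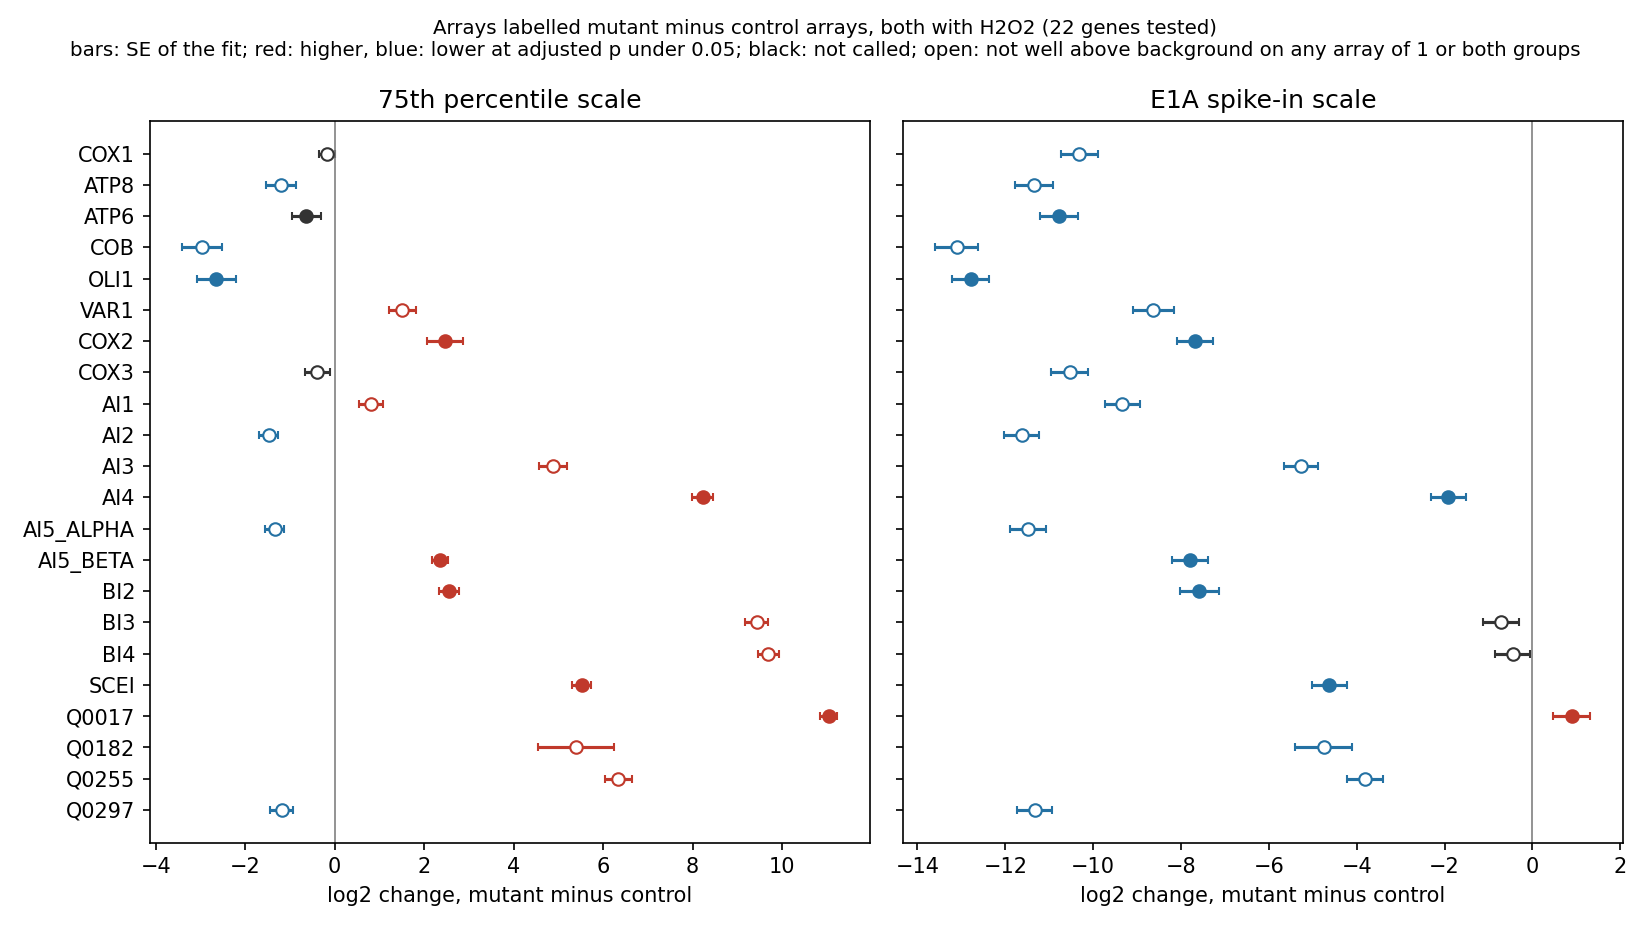
Log2 change of 22 mitochondrial genes on arrays labelled mutant minus control arrays, both with H2O2, on the 75th percentile scale (left) and the spike-in scale (right), with the standard error of the fit as bars. Colour marks the call, and open points had no array well above background in at least 1 group, so their size is not measured. The calls of 13 genes as higher on the left become 1 on the right, Q0017.

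Relative to the 75th percentile of the same array, the direction of many of these genes was the other way round. With H2O2, 13 of 22 mitochondrial genes were called higher on the mutant arrays and 6 lower, when 51.7% and 28.3% of all genes tested were. Without H2O2 the counts were 13 higher and 4 lower, when 50.5% and 28.8% of all genes were. The medians of the mitochondrial genes were 1.93 and 2.24, and those of all genes 0.73 and 0.63. On this scale the mutant arrays are set against a percentile of 9.87 to 14.5 units, which lies among probes at background.

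The 6 genes called lower with H2O2 on this scale were COB, OLI1, ATP8, AI2, AI5_ALPHA and Q0297. AI2 and Q0297 were not well above background on any mutant array. The dimmest flagged probes lay above their control level on this scale, so their lower calls have not even a bound. COB was at least 2.88-fold lower with H2O2 and at least 2.41-fold lower without, and OLI1 differed by -2.65 ± 0.43 and -2.54 ± 0.43 (adjusted p = 0.000843 and 0.00108). ATP8 was at least 1.36-fold lower with H2O2 (adjusted p = 0.0119), and missed the threshold when the mutant replicate 1 or the control replicate 2 with H2O2 was left out (adjusted p = 0.0835 and 0.0524). COB, OLI1, ATP8, AI2, AI5_ALPHA and Q0297 were therefore called lower with H2O2 on both scales. Of these genes only OLI1 was well above background on the mutant arrays. For the others a dim reading is set against a percentile that itself lies among probes at background. Their lower calls here are therefore no separate support for a lower level. COX2 (2.46 ± 0.41 with H2O2) and VAR1 were called higher here and lower on the spike-in scale. VAR1 was not well above background on any mutant array, so no size is given for it. Its call with H2O2 was lost with quantile normalization, with the percentile over genes above background on all arrays and with the authors' normalized values (adjusted p = 0.309, 0.0513 and 0.409), and that of COX2 with the authors' normalized values (adjusted p = 0.0601).

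The largest changes on the 75th percentile scale were those of Q0017, at 11.05 ± 0.19 with H2O2 and 10.85 ± 0.19 without, followed by BI4 and BI3, whose probes hardly differed in units. Both entered the test only through mutant arrays, on which they were then called higher. Relative to the 75th percentile, BI4 was at least 532-fold higher with H2O2 and at least 338-fold higher without. These bounds follow the percentiles of the arrays and are no lower limit on a change of BI4 itself, which read 11.6 to 20.5 units on all 8 arrays. On the spike-in scale BI4 had no such bound, and changed by -0.45 ± 0.40 with H2O2 (adjusted p = 0.278) and by -0.24 ± 0.40 without (adjusted p = 0.563). COX1 and COX3 did not pass the test on the 75th percentile scale in either medium, with adjusted p from 0.0636 to 0.579. Neither was well above background on any mutant array. Other scalings called both lower with H2O2, and normexp correction called both higher (0.75 and 1.83). COX1 changed by -0.82 and COX3 by -1.03 with the percentile over genes above background on all arrays (adjusted p = 0.00378 and 0.00716), by -0.93 and -1.14 with median scaling, by -0.94 and -4.35 with quantile normalization, and by -0.96 and -4.54 in the authors' normalized values. COX3 was called lower without H2O2 as well under each of these 4 scalings (-0.87 to -4.31). ATP6 was called lower with H2O2 under the first 2 of them (-1.28 and -1.39). COX1 was called higher without H2O2 (0.63, adjusted p = 0.00745) when the mutant replicate 1 without H2O2 was left out. ATP6 was likewise called higher without H2O2 (0.97, adjusted p = 0.0279) when the mutant replicate 2 without H2O2 was left out.

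The authors' deposited table with H2O2 lists 20 of the mitochondrial genes, 11 as up and 9 as down, of which 4 and 6 had a corrected p under 0.05, when 45.9% of all gene probes listed there did in either direction. The authors' deposited table without H2O2 lists 18, 11 up and 7 down, of which 6 and 3 had a corrected p under 0.05, when 46.2% of the listed gene probes did. OLI1 is down 74.1-fold with H2O2 and 95.6-fold without in the authors' deposited tables, and COX3 is down 23.3-fold and 19.8-fold there.

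In control cells few mitochondrial genes passed the test for H2O2, and none of the 8 protein genes did. On the 75th percentile scale 20 of the 22 genes tested had a positive change, with a median of 0.37, beside 0.03 over all genes. BI4 and Q0255 were called higher and 0 genes lower, when 27.1% of all genes tested were called in either direction. At an unadjusted p under 0.05, 3 genes passed, when 39.9% of all genes did.

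**Figure D3:**
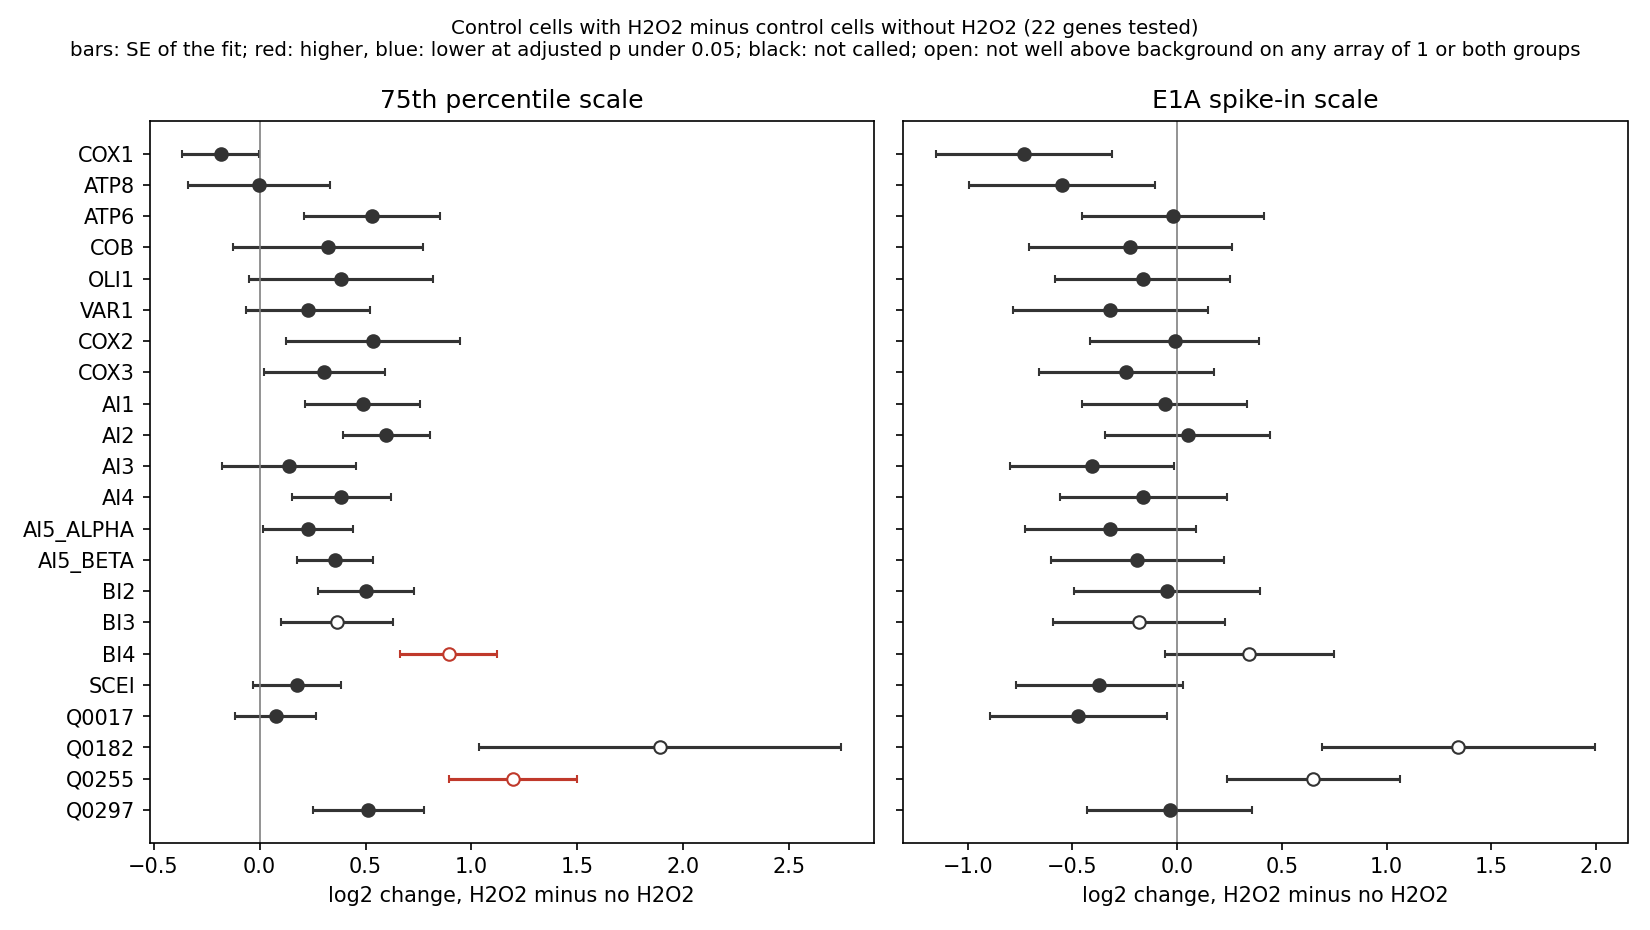
Log2 change of 22 mitochondrial genes in control cells with H2O2 minus control cells without, on the 75th percentile scale (left) and the spike-in scale (right), with the standard error of the fit as bars. Red points passed an adjusted p of 0.05, and open points were not well above background on any array of at least 1 group. On the left 20 of 22 points lie above 0, on the right 4.

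The direction depended on the scale. On the spike-in scale 4 of 22 genes had a positive change, the median was -0.17 beside -0.52 over all genes, and 0 genes passed, when 0.480% of all genes were called higher and 15.9% lower. At an unadjusted p under 0.05 again 0 passed, when 29.6% of all genes did. The mitochondrial median lay above that of all genes by 0.34, a difference that does not depend on the scale. The 17 genes well above background on all 4 control arrays can also be compared array by array. On the 75th percentile scale both arrays with H2O2 lay above both without for 11 of them, when 44.7% of such genes did, and below for 1, when 42.0% did. On the spike-in scale 0 lay above (14.1% of genes) and 9 below (74.0% of genes).

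Among the 8 protein genes the changes on the 75th percentile scale ran between -0.18 for COX1 and 0.54 for COX2, with a median of 0.31 and no call. ATP6 changed by 0.53 ± 0.32 (95% interval -0.23 to 1.29), OLI1 by 0.38 ± 0.43, COB by 0.32 ± 0.45, COX3 by 0.30 ± 0.29, VAR1 by 0.23 ± 0.29 and ATP8 by -0.0027 ± 0.33. COX1 changed by -0.18 ± 0.18, with a 95% interval of -0.61 to 0.24. All 8 were negative on the spike-in scale, between -0.73 (COX1) and -0.01 (COX2). The fit pools the spread of all 4 groups, so these intervals also take in that of the mutant arrays, on which these probes were dim. They are not the spread of the control arrays alone. As fitted, the intervals allow changes of either sign for each of the 8 genes on either scale. With only the control groups in the fit, none of the 8 passed on the 75th percentile scale.

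The replicates with H2O2 differed in a way that touched most of these genes. In units, replicate 2 of the control cells with H2O2 read above replicate 1 for 22 of 23 mitochondrial genes, and relative to the 75th percentile for 18 of 23, with a median difference of 0.21 beside -0.01 over all genes tested. Relative to the spike-in probes the difference was 0.06 beside -0.16. Without H2O2 the replicates of control cells differed with a median of 0.0049.

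Q0255, an open reading frame next to COX2, read 43.1 and 87.8 units in control cells with H2O2 and 32.2 and 44.8 units without, with 5.58 and 5.37 units on the mutant arrays with H2O2 and 4.85 and 5.70 units on those without. It was well above background on both control arrays with H2O2 and on no other array. It therefore entered the test only through the group in which it was then called higher. The flag differed between arrays: 43.1 units met it on control replicate 1 with H2O2, and 44.8 units on control replicate 2 without did not. Relative to the percentile of the array its rise is a bound of at least 1.49-fold (limma, adjusted p = 0.0276). On the spike-in scale the bound was 1.02-fold, without a call (adjusted p = 0.299). In units the control groups overlap. BI4 passed the test (adjusted p = 0.0284) without being well above background on any control array, and no fold is given for it.

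Both calls rested on the choice of libraries. BI4 missed the threshold when any of the 4 control arrays was left out, with adjusted p of 0.0818 and 0.149 without replicate 1 or 2 with H2O2, and 0.212 and 0.0970 without replicate 1 or 2 of the cells without H2O2. Q0255 missed it without replicate 2 with H2O2 (adjusted p = 0.170) and without replicate 1 or 2 of the cells without H2O2 (adjusted p = 0.189 and 0.0743). The number of genes called over the whole array was 1637, and it fell to 85 when replicate 1 of the control cells without H2O2 was left out, to 291 without replicate 2 of those cells and to 532 without replicate 2 with H2O2.

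The control arrays without H2O2 were the most alike of the 4 groups, and those with H2O2 differed most relative to their spots. Averaged over genes, the variance between arrays was 16.8 times that expected from the paired spots of a probe for control cells with H2O2. It was 0.536 times for control cells without, and 1.04 and 1.25 times for the mutant arrays with and without H2O2. By the median gene the ratio was 21.5 for control cells with H2O2 and 1.39 for those without. For the mutant arrays with and without H2O2 it was 1.57 and 1.60. If the 2 arrays are counted as 1 sample, 0 mitochondrial genes and 124 genes in all pass for H2O2 in control cells, with adjusted p of 0.144 for BI4 and 0.118 for Q0255. When the arrays labelled mutant are left out of the fit, 6 mitochondrial genes pass as higher (AI1, AI2, BI2, BI4, Q0255 and Q0297) and 3473 genes in all.

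Q0182 carried a single bright spot. Its 2 spots on control replicate 1 without H2O2 read 12.6 and 436 units, a 34.5-fold difference, while those on the other 7 arrays differed by at most 2.63-fold. Its change of 1.89 ± 0.85 in control cells did not pass (adjusted p = 0.148). Q0010 was not well above background on both arrays of any group and was not tested; it read 3.14 to 34.0 units over the 8 arrays. Q0297 read 1.70 to 3.01 units on the mutant arrays and 3235 to 5151 units on the control arrays.

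The exon probe of COX1 had the lowest change with H2O2 of the 22 mitochondrial genes tested. The probes in 6 of its introns, those with a probe here, changed by between 0.14 (AI3) and 0.60 (AI2) on the 75th percentile scale. On that scale COX1 changed by -0.18. The ratio of an intron probe to the exon probe of the same array does not depend on scaling. It was higher on both control arrays with H2O2 than on both without for all 6 introns probed, by 0.78 for AI2, 0.67 for AI1, 0.57 for AI4, 0.54 for AI5_BETA, 0.41 for AI5_ALPHA and 0.32 for AI3 (log2). AI4 was not well above background on replicate 2 of the control cells without H2O2, so its ratio rests in part on a dim reading. For AI2 the 2 arrays with H2O2 differed from each other by 0.16 and the 2 without by 0.16.

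These ratios were examined after the values were seen. With 2 arrays against 2, an exact permutation test cannot go below a two-sided p of 0.333, so none of the 6 can pass. A change above that of COX1 in every pairing of arrays was not particular to the introns. Outside the introns of COX1, it held for 10 of the 11 other mitochondrial genes well above background on all 4 control arrays, Q0017 being the exception, and for 55.1% of all such genes on the array. ATP8 and ATP6, which are made from the same primary transcript as COX1, differed from it by 0.18 and 0.71. For BI2 relative to COB the groups overlapped, with a difference of 0.18.

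**Figure D4:**
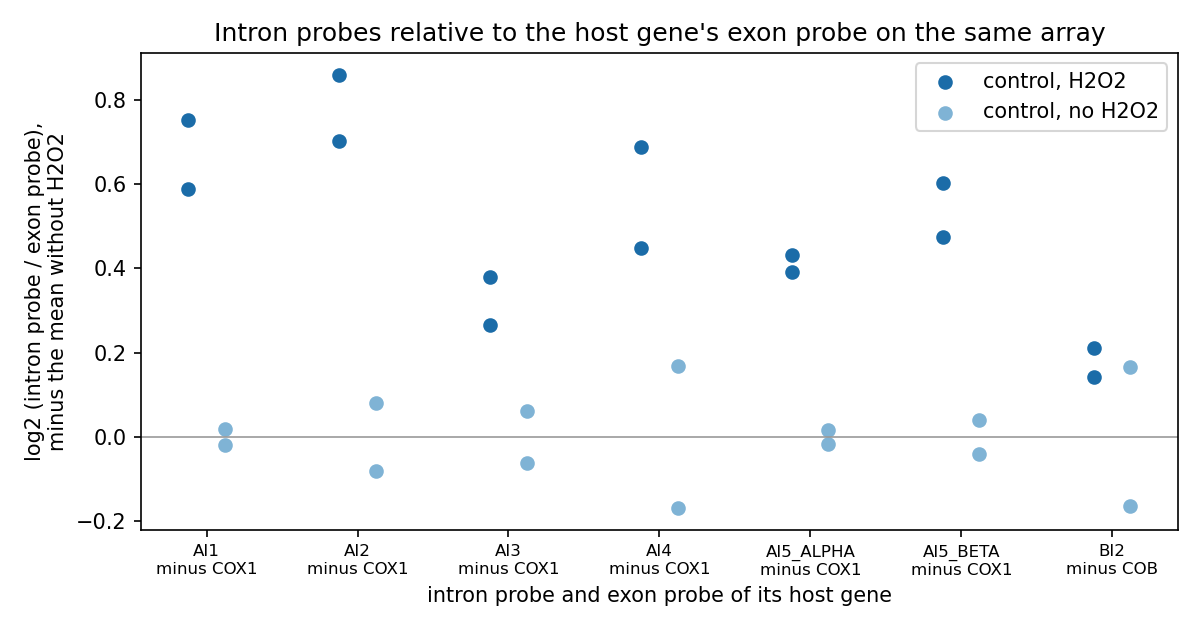
Log2 ratio of each intron probe to the exon probe of its host gene on the same array, in control cells with H2O2 (dark) and without H2O2 (light), each minus the mean without H2O2. Each point is 1 array. For the 6 introns of COX1 that had a probe, both arrays with H2O2 lie above both without, and for BI2 and COB they overlap.

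Nuclear genes for partner subunits of the same complexes were partly lower in control cells with H2O2. Of 31 nuclear subunits of complexes III, IV and V on the array, 0 were called higher with H2O2 and 13 lower on the 75th percentile scale, with a median of -0.59, beside 0.31 for the 8 mitochondrial protein genes and 0.03 for all genes. Over the whole array 790 of 6045 genes tested were called higher and 847 lower, 27.1% in either direction. RIP1, the iron-sulfur protein of complex III, read 10628 and 13201 units with H2O2 and 36791 and 33610 units without, and fell by 1.07 (SE 0.19, adjusted p = 0.00907). CYT1, cytochrome c1, read 33908 and 45387 units with H2O2, against 115137 and 110362 units without. Its change was -1.02 on the 75th percentile scale and -1.57 on the spike-in scale. COR1, a core subunit of the same complex, fell by 0.99 and ATP4, of the stator of the ATP synthase, by 0.80. On the spike-in scale 11 of the 31 were lower, when 15.9% of all genes were, with a median of -1.13, beside -0.23 for the 8 mitochondrial protein genes. No test of the difference between these groups was made.

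**Figure D5:**
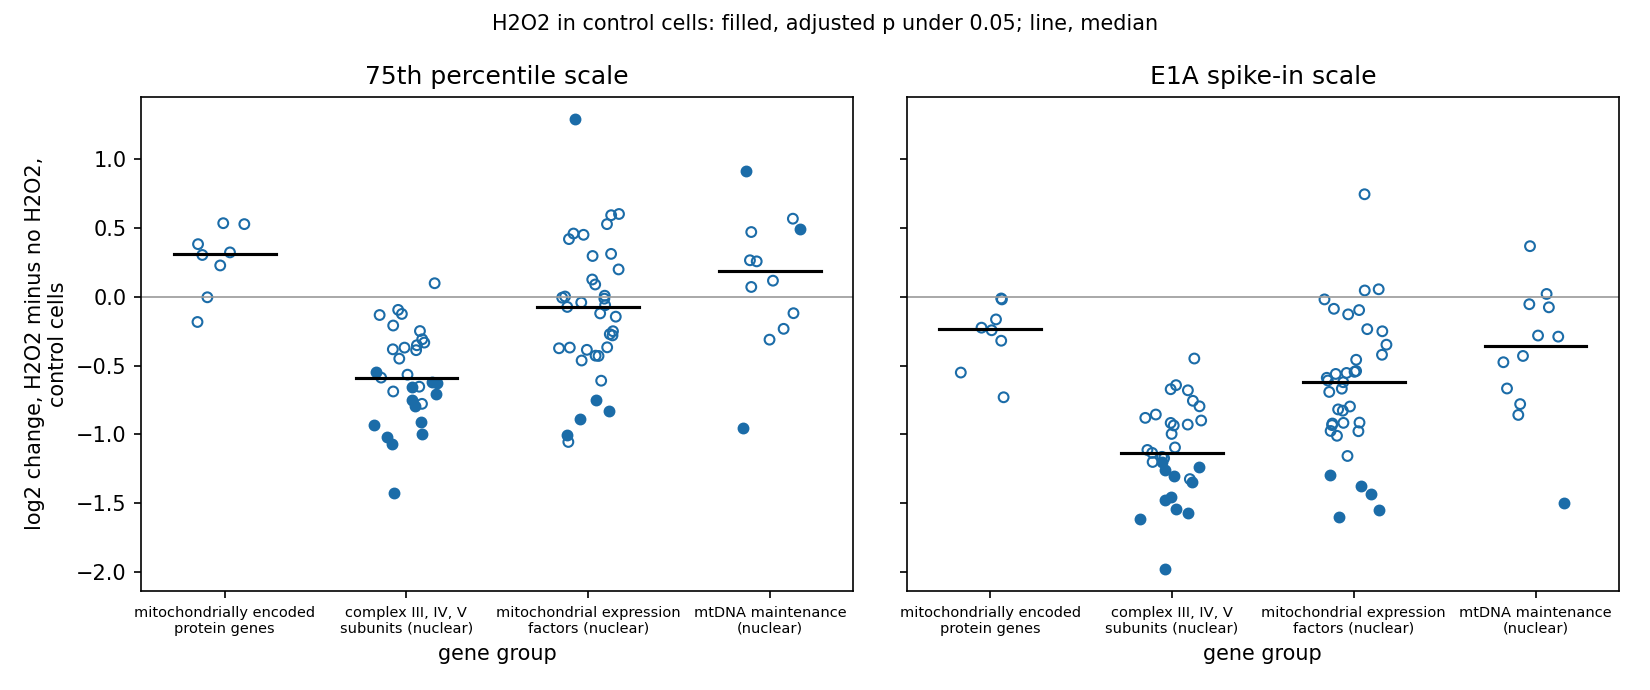
Log2 change in control cells with H2O2 minus control cells without, for the 8 mitochondrial protein genes and 3 groups of nuclear genes, on the 75th percentile scale (left) and the spike-in scale (right). Each point is 1 gene, filled where the adjusted p was under 0.05, and the line is the median. The medians of the mitochondrial protein genes are 0.31 and -0.23, those of the nuclear subunits -0.59 and -1.13.

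Of 37 nuclear factors that act in expression of mitochondrial genes, 1 was called higher and 4 lower, with a median of -0.07 (-0.62 on the spike-in scale, with 0 higher and 5 lower). These 5 of 37 compare with the 27.1% of all genes called, and the 5 on the spike-in scale with 15.9% lower. CBP1, which stabilises the COB mRNA, read 1579 and 4335 units with H2O2 and 1438 and 1588 units without in control cells. In units the control groups overlap, and on the spike-in scale CBP1 changed by 0.747 without a call (adjusted p = 0.254). Relative to the percentile of the array it was called higher, by 1.29 ± 0.30 (adjusted p = 0.0218). On that percentile scale COB itself changed by 0.32 ± 0.45. PET494, a translational activator of the COX3 mRNA, fell by 1.00 (adjusted p = 0.00873). ATP22, which activates translation of ATP6, fell by 0.83 and NCA2, which acts on the mRNA of ATP8 and ATP6, by 0.89. COX3 and ATP6 changed by 0.30 ± 0.29 and 0.53 ± 0.32 in the same comparison.

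Of 12 nuclear genes for maintenance of mitochondrial DNA, 2 were called higher and 1 lower on the 75th percentile scale, and 0 and 1 on the spike-in scale. The 3 of 12 calls are near the 27.1% of all genes called in either direction. On the 75th percentile scale MSH1, a mitochondrial mismatch repair protein, was higher by 0.92 ± 0.17 (adjusted p = 0.0103) and the helicase PIF1 by 0.49 ± 0.15 (adjusted p = 0.0477). On the spike-in scale MSH1 changed by 0.37 and PIF1 by -0.05, without a call (adjusted p = 0.582 and 0.942). PIF1 read 6249 and 9555 units with H2O2, on either side of the 7708 and 7829 units without. NTG1, a DNA glycosylase for oxidised bases, read 4734 and 5656 units with H2O2 and 14350 and 14067 units without, and fell by 0.96 (SE 0.19, adjusted p = 0.0135). HMI1, another mitochondrial helicase, changed by 0.47 ± 0.17 and did not pass (adjusted p = 0.0816).

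On the arrays labelled mutant no change of a mitochondrial gene with H2O2 was detectable. Of 22 genes, 0 passed the test on the 75th percentile scale, when 0.0331% of all genes were called higher and 0% lower, and 4 had an unadjusted p under 0.05 (limma), when 12.6% of all genes did. The median was -0.06. The depth of these arrays limits what could be seen, since 11 of the 23 genes were not well above background on any mutant array. Q0017 changed by 0.28 ± 0.19 (adjusted p = 0.626).

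The difference between the H2O2 responses of the strains, tested as an interaction, was called for AI2 alone among the 22 genes, as lower, when 11.6% of all genes were called in either direction. AI2 read 1.97 and 2.11 units on the mutant arrays with H2O2 and 3.72 and 3.14 units on those without, and 3963 and 6745 units and 4527 and 5164 units in control cells with and without H2O2. The interaction was -1.55 ± 0.29 (adjusted p = 0.0282), and -0.87 ± 0.56 on the spike-in scale (adjusted p = 0.344). It missed the threshold without control replicate 2 with H2O2 and without either control array without H2O2 (adjusted p = 0.0853, 0.155 and 0.116). No mutant array was well above background for AI2.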

How the data were processed

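The deposited scanner output of each of the 8 arrays lists, for every spot, a background-subtracted intensity (the processed signal) and a background flag; the scanner software was Feature Extraction 10.7.1.1 per the file headers. The authors' deposited tables hold a p-value, a corrected p-value and an absolute fold change per probe, and normalized log2 values per array, per the file headers, whose centring is not stated; 8 raw columns were not used. The log2 signals of the spots that share a probe were averaged, leaving out outlier and control spots (536 control spots per array; no spot was saturated), and a gene was represented by its probe of highest mean signal. A probe counted as well above background where every spot kept was flagged. Signals were scaled to the 75th percentile over all gene probes, or to 7 of 10 E1A probes. Genes flagged in this way on both arrays of any group, 6045 in number, entered a single limma fit (version 3.58.1, R 4.3.3) that held all 4 groups (two-sided, Benjamini-Hochberg over all genes). In simulated data of 6045 genes, 200 were changed between the control groups, and each gene's spread was pooled over all 4 groups. The fit recovered 39.5% of log2 changes of 1 (3 false calls) and 85.0% of changes of 2 (7 false calls). The simulated spread was the same in every group, unlike that of the arrays, so false calls under unequal spread were not tested. P-values measure the spread between arrays of a group, pooled over the 4 groups. The mitochondrial genes (members), the 3 nuclear gene lists and the rule for named genes were chosen with earlier results of these data known. The rule named the 8 protein genes, other members called with H2O2 in control cells or above background on both arrays of a mutant group, and of each list up to 4 genes of smallest p and 2 against its median. ATP21 was not matched on the array. Alternatives were other scalings, background correction, filters, probe averaging, fits and leaving out each array.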

Additional observations from a re-analysis of the deposited data

Results flagged for a closer look

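AI2, the frame in intron 2 of COX1, differed between strains in its response to H2O2 by the interaction term, with a log2 value of -1.55 (limma, adjusted p = 0.0282). With E1A scaling the value was -0.87 and did not pass (adjusted p = 0.344). The 4 mutant arrays read 1.97 to 3.72 units, none well above background.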

How the results depend on the processing

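Members are the mitochondrial genes tested. All values here are log2 changes or counts of genes at an adjusted p under 0.05 (limma). Of 979 values for single named genes under the alternatives, 900 kept direction and side of the threshold, 28 lost the call, 28 gained it and 23 reversed; sign changes of values called under neither setting were not counted. The comparisons of strains depended on the scaling. With E1A scaling 1 member was higher and 19 lower with H2O2 (median -8.21), and 0 and 19 without (median -8.58). The genes that reversed there were, with H2O2, AI4 (-1.92), AI5_BETA (-7.79), BI2 (-7.59), BI3 (-0.71), BI4 (-0.45), VAR1 (-8.63), SCEI (-4.63), COX2 (-7.68) and Q0255 (-3.81). Without H2O2 they were COX1 (-10.40), AI4 (-2.33), AI5_BETA (-7.60), ATP6 (-10.26), BI2 (-7.32), BI3 (-0.40), BI4 (-0.24), VAR1 (-9.14), SCEI (-4.91), COX2 (-8.03) and Q0255 (-3.15). With normexp correction, run on median spot signals, COX1 (0.75) and COX3 (1.83) reversed with H2O2 and COX3 (2.23) without. The median change between strains, with and without H2O2, was 1.18 and 1.51 with median scaling, 0.97 and 1.58 with quantile normalization, 1.29 and 1.56 with the percentile over genes above background on all arrays, 2.31 and 2.63 with normexp, 2.36 and 2.80 with no filter, and 0.28 and 0.60 from the authors' normalized values. Members lower without H2O2 numbered 7 with each of the median, quantile and well-measured percentile scalings. The authors' normalized values gave 7 and 8 members higher. With genes above background on all arrays compared, 4 members were higher and 1 lower in each medium (medians 5.52 and 3.51), of 1186 and 1241 genes called.

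For H2O2 in control cells, members higher numbered 0 with quantile normalization (110 genes called in all), 0 with E1A scaling (993 genes, median -0.17), 13 with normexp (4235 genes), 0 with the strict filter, 6 with only the control groups (3473 genes), and 0 with the control arrays without H2O2 as 1 sample (124 genes). For H2O2 on the mutant arrays, the genes called were 91 with quantile normalization (1 member lower, median -0.24), 1 with E1A scaling, 1 with the well-measured percentile, 5 with a variance trend, and 0 with normexp, the strict filter (median 0.12), the 2 groups alone and the control arrays as 1 sample. For the interaction, members lower and genes called were 0 and 11 with quantile normalization, 0 and 464 with E1A scaling (median 0.18), 7 and 3382 with normexp, 0 and 221 with the strict filter (median -0.10), and 0 and 0 with the control arrays as 1 sample; the well-measured percentile gave 353 genes and no filter gave 2 members. With the replicate number as a block, 0 genes were called for H2O2 on the mutant arrays, and no other count of members or genes moved by over 1.5 times. Same-numbered arrays correlated at 0.21 for the control groups and at -0.07 to 0.02 for the other pairs of groups, so the numbers were not taken as pairs. Members at 20 units or more on both arrays numbered 2 and 2 on the mutant arrays with and without H2O2, and at 100 units 1 and 1. Over all genes the shares on these arrays were 5.64% and 5.01% at 20 units, and 2.44% and 1.98% at 100 units.

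With each array left out in turn, the counts for H2O2 in control cells ranged over 0 to 3 members higher and 85 to 2263 genes. On the mutant arrays they were 0 to 1 members lower and 0 to 328 genes (medians -0.31 to -0.0619). For the interaction they were 0 to 4 members lower and 0 to 1240 genes (medians -0.72 to -0.42). The medians between strains were 1.77 to 2.08 with H2O2 and 2.04 to 2.38 without. Leaving an array out leaves 1 in its group, which is then assumed to vary like the other groups.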
